A study of Mus musculus with 82 samples.

Results

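The genes of 7 antimicrobial proteins of skin and white blood cells were followed in mouse dorsal skin after whole-body X-rays: Slpi, S100a8, S100a9, Lcn2, Camp, Ltf and Defb1. A gene's probes were those whose accession names it, and of several probes the one with the highest mean log2 intensity over all 82 arrays was used. In this way 7 genes were taken of the 18689 genes that the array's probes name. The set was proposed with results of these arrays in view, and Slpi was also in the study's own list of genes chosen by their change on these arrays, upward at h2, d4 and d7 after 20 Gy, at d21 after 3 Gy and at d28 after 6 Gy. Slpi in those comparisons is therefore given as a description without a test.

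The skin is covered by proteins that kill or starve microbes, made by keratinocytes and brought in by neutrophils. S100A8 and S100A9 pair into calprotectin, which withholds zinc and manganese from microbes, and lipocalin-2 (Lcn2) withholds iron by binding siderophores. Cathelicidin (Camp), lactoferrin (Ltf) and beta-defensin 1 (Defb1) act on microbes directly, while Slpi both kills microbes and inhibits the proteases that neutrophils and mast cells release. Wounded or inflamed epidermis is known to raise S100a8, S100a9, Lcn2 and Slpi, whereas Defb1 is mostly made constitutively.

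The animals were adult male C57BL/6j mice, 24 in all, that were biopsied repeatedly so that arrays of 1 mouse recur over the time points (TPs). Mice received 1, 3 or 6 Gy (sublethal), 20 Gy (lethal, with biopsies only up to d7) or a sham procedure with transport and no exposure. Each array carried Cy5-labelled RNA of 1 biopsy against Cy3-labelled Agilent Universal Mouse Reference RNA, with no dye swap, and a value below is the log2 ratio of biopsy over reference after loess normalization, unless another scale is named. Groups at h2, d4, d7, d21 and d28 held 4, 4, 4, 2 and 2 sham arrays, 4, 4, 2, 4 and 4 arrays of 1 Gy, 5, 5, 3, 4 and 3 of 3 Gy and 4, 4, 2, 3 and 4 of 6 Gy. For 20 Gy there were 4, 4 and 3 arrays at h2, d4 and d7.

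Some facts of the whole series touch each result. All 11 arrays of 20 Gy were scanned on scanner 1, which read 25 of the 82 arrays, and those of h2 shared 1 slide and those of d4 another, so that slide and exposure cannot be told apart there. Arrays of 20 Gy were dim: their median Cy5 signal was 22 to 33 scanner units, against 23 to 98 in sham, and 38.1% to 50.4% of their probes were well above background, against 44% to 65.2% in sham. At h2 after 20 Gy 53.5% of the called probes were higher than in sham with loess, against 1.32% when each array was only centred on its median, at d4 50% against 1.16% and at d7 39.3% against 15%; in the deposited values the shares were 31.1%, 26.8% and 30.5%. Median centring also moved the median of all probes to -0.49 at h2 and d4, and between 20 and 6 Gy it took the share of higher calls from 45.9%, 48.9% and 37.7% to 2.35%, 1.72% and 70.4%. Of the deposited normalized columns of 20 Gy at h2 and d4, 8 of 8 resembled an array of 20 Gy at d7 more than their own. Of 11 epidermal marker genes 10 or 11 were well above background on every array. After 20 Gy 3, 6 and 2 of 11 macrophage and monocyte genes were called lower at h2, d4 and d7 and none higher, and 4, 4 and 0 of 7 mast cell genes and 4, 5 and 1 of 7 endothelial genes were lower. Of 7 adipocyte genes 3, 4 and 6 were lower (1, 1 and 0 higher), of 11 epidermal genes 4, 5 and 5 were lower (4, 4 and 0 higher), and of 8 skeletal muscle genes 3, 3 and 0 were higher (0, 1 and 0 lower); the part of these cell types in the results below was not tested. Of 2 genes taken as a check of exposure, Cdkn1a was 0.64 higher than in sham at h2 after 20 Gy and 2.53 higher at d4 (limma, adjusted p = 0.283 and 1.1e-05), and Mdm2 was 0.23 higher at both TPs (adjusted p = 0.352 and 0.362). With median centring these values were -1.76 and 0.27 for Cdkn1a and -1.53 and -1.38 for Mdm2. Of 14 targets of p53, these 2 among them, limma called 4 higher and 0 lower in lethal skin at h2, 7 and 1 at d4, and 1 and 0 at d7, with list medians of 0.58, 0.80 and 0.38.

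The stretch before the start of a gene carries part of its regulation, and the promoters of the 3 members with the widest swings are shown, each as the 250 bases before the RefSeq start on the gene's own strand (GRCm38.p6). Capitals mark matches to TTNNGNAA, a core of the binding sites of the C/EBP factors, on either strand (TTNCNNAA on the other), and to the TATA box TATAAA. Slpi lies on chromosome 2, and its window is chr2:164356508-164356757 (minus strand). S100a8 and S100a9 are neighbours on chromosome 3, with windows chr3:90668821-90669070 (plus strand) and chr3:90695722-90695971 (minus strand).
Slpi: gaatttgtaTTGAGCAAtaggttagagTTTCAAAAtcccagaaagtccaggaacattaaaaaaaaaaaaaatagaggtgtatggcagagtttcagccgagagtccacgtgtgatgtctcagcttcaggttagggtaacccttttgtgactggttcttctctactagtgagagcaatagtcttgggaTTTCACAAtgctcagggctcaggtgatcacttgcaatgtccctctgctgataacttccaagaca
S100a8: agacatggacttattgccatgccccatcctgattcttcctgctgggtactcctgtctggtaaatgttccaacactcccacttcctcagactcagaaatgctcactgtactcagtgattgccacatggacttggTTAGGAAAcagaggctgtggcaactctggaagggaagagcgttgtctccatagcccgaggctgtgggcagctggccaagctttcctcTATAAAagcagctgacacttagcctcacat
S100a9: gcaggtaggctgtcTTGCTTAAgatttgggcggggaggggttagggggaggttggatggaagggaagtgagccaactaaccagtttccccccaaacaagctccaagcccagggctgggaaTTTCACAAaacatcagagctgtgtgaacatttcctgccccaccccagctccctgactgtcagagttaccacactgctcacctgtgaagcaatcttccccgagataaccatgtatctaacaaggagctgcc
Slpi held 3 C/EBP matches, S100a9 2 and S100a8 1, beside the single TATA box of S100a8, and no match of one motif overlapped the other. Among 32851 mouse promoters of this length 36.8% held the C/EBP core and 12.4% the TATA letters. Lcn2 had 1 C/EBP match, Ltf 2 and Camp none, and the NF-kB consensus, present in 7.25% of promoters, was found in none of these 6 windows; Defb1 had no entry in the table. These matches describe letters only.

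The members lie at chr2:164354070-164356507 (Slpi), chr3:90669071-90670034 (S100a8), chr3:90692630-90695721 (S100a9), chr2:32384637-32387739 (Lcn2), chr9:109847377-109849456 (Camp), chr9:111019292-111042766 (Ltf) and chr8:21776555-21795185 (Defb1) in GRCm38.p6, and the probes' own positions within the transcripts were not used here.

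The members differed widely in how far the probes saw them. Slpi, S100a9 and Defb1 were well above background on 82 of 82 arrays and S100a8 on 75. Lcn2 was above background on 46 arrays, Camp on 15 and Ltf on 4, so that for Camp and Ltf, which were fitted and count among the tests below, no fold change is reported. A second Slpi probe was above background on 0 of 82 arrays and was not tested.

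Slpi, the secretory leukocyte protease inhibitor, read far below the reference RNA in sham skin and closer to it on every array of lethal (20 Gy) skin. In sham at h2 its log2 ratio was -4.76, -3.95, -4.83 and -4.82 in mice M001, M002, M004 and M005, and after 20 Gy it was -1.20, -1.15, -1.67 and -1.42 in M021 to M024. At d4 the sham arrays read -4.57, -4.07, -4.72 and -4.47, and those of 20 Gy -1.71, -1.76, -1.85 and -2.18. The groups did not overlap at either TP. At d7 the sham arrays stood at -3.61, -3.52, -3.93 and -3.42, and the 3 arrays of 20 Gy, at -2.13, -2.16 and -1.68, were again all above them. The log2 fold changes of h2, d4 and d7 were 3.23, 2.58 and 1.63 (SE 0.46, 0.46 and 0.50).

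**Figure D1:**
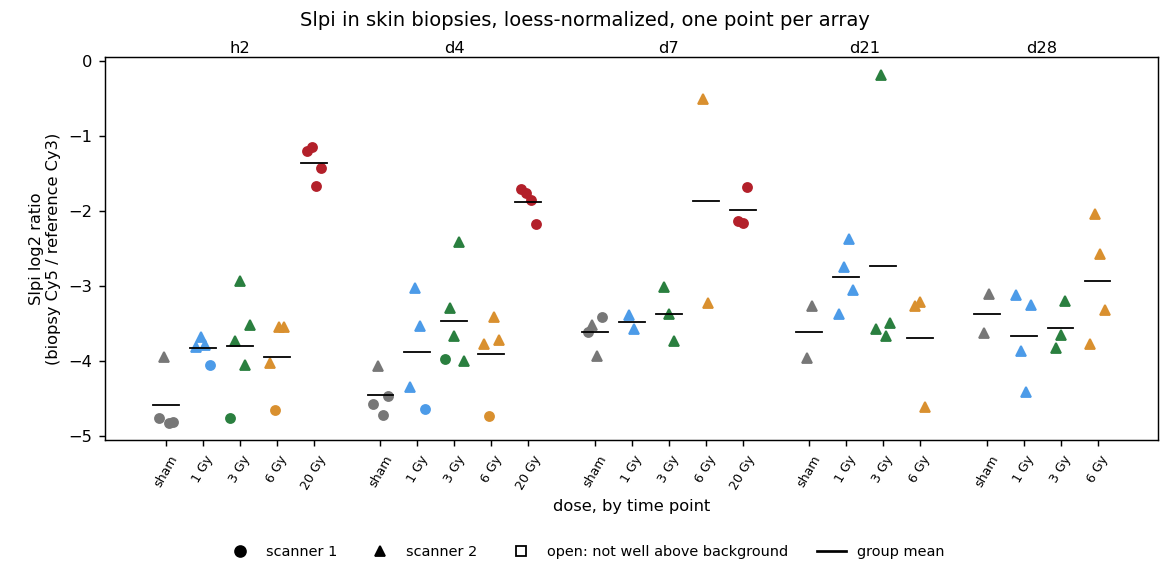
Log2 ratio of Slpi (biopsy Cy5 over reference Cy3, loess) on each of 82 arrays, by dose and time point, with bars at the group means. All 20 Gy arrays lie between -2.18 and -1.15, above every sham array, and single arrays of 6 Gy at d7 (-0.51) and 3 Gy at d21 (-0.18) lie higher still.

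The size of this difference varied with the normalization. The Slpi signal over local background was 282, 419.5, 294.5 and 325 scanner units in the Cy5 channel at h2 after 20 Gy, against 365.5, 846.5, 306.5 and 279 in sham, so the biopsy signals themselves overlapped. At d4 they were 266, 316, 247.5 and 256.5, all below the sham signals of 433, 326, 473.5 and 354.5. The reference gave 12701 to 15976.5 units for the same probe on the 20 Gy arrays of h2 and 14498.5 to 34191 on the sham arrays of h2. Loess raised the Slpi ratio by 3.16 to 3.50 on the 20 Gy arrays of h2 relative to median centring, and by 0.34 to 0.91 on the sham arrays. With median centring the Slpi differences of the 3 TPs fell below the 2-fold limit, to 0.41, 0.21 and 0.68. Median-centred values of h2 ran from -4.84 to -4.50 after 20 Gy and from -5.31 to -4.85 in sham, and at d4 and d7 the groups overlapped. Slpi was higher after 20 Gy in each of the other settings tried, and arrays of scanner 1 alone gave 3.44, 2.71 and 1.52. Over 37 settings the difference ran from 0.41 to 3.44 at h2, 0.21 to 2.79 at d4 and 0.68 to 2.05 at d7, lowest with median centring at each TP.

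**Figure D2:**
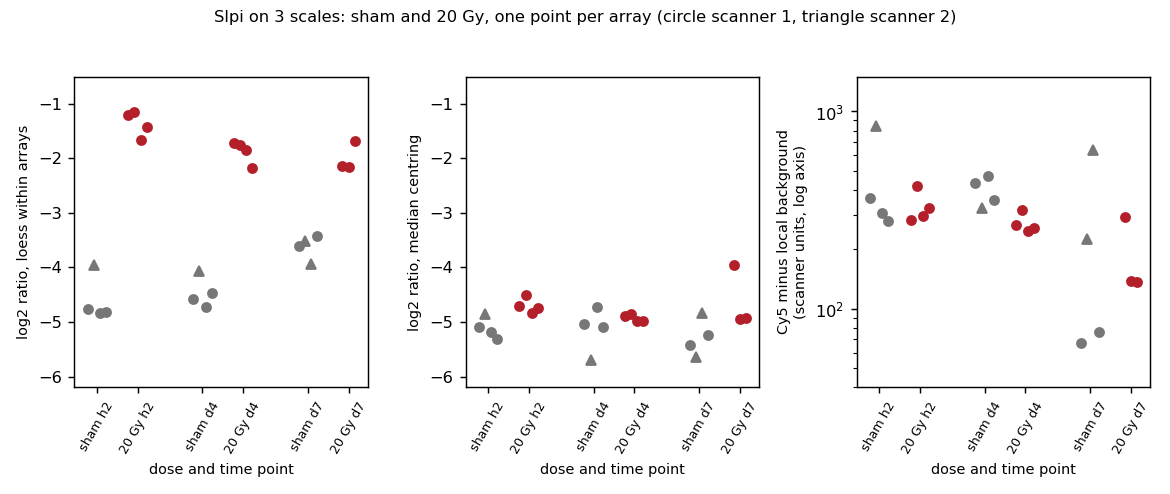
Slpi in sham (grey) and 20 Gy (red) skin at h2, d4 and d7 as the loess-normalized log2 ratio (left), as the median-centred log2 ratio (middle) and as Cy5 signal minus local background in scanner units on a log axis (right), with 1 point per array. The groups are apart by 3.23, 2.58 and 1.63 on the left and by 0.41, 0.21 and 0.68 in the middle, and on the right the 20 Gy arrays lie within the range of sham at h2 and d7 and below it at d4.

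In sublethal skin Slpi was on average within 2-fold of sham in every group but 6 Gy at d7, with 2 biopsies far above sham. After 1, 3 and 6 Gy the mean differences were 0.76, 0.79 and 0.65 at h2 and 0.57, 0.99 and 0.55 at d4. The difference was 0.72 at d21 after 1 Gy. It was below 0 at d28 after 1 Gy (-0.30) and 3 Gy (-0.19) and at d21 after 6 Gy (-0.09). At d7 after 6 Gy Slpi was -0.51 in M018 and -3.23 in M020 (log2 fold change 1.75, SE 0.57, limma, adjusted p = 0.328). That difference was 0.39 without M018 and 3.11 without M020, each with 1 array of 6 Gy left, and 0.88 in the deposited values (limma, adjusted p = 0.212). At d21 after 3 Gy it was -0.18 in M013 and between -3.67 and -3.49 in the other 3 mice, with a mean difference from sham of 0.89. Without M013 it was 0.04, and in the other settings it ran from 0.54 (without sham M002) to 1.48 (slide as a random block). These 2 arrays were also the brightest in the Cy5 channel, at 5655 units in M013 and 3263 in M018, so that here the raw signal and the ratio rose together. The same mice read -3.37 at d7 and -3.83 at d28 (M013), and -3.42 at d4, -3.21 at d21 and -2.04 at d28 (M018). At d28 after 6 Gy the mean difference was 0.44, with arrays at -3.78, -2.04, -2.58 and -3.32 (M016, M018, M019 and M020) against -3.63 and -3.11 in sham. It was 0.14 without M018, 0.93 with median centring, 1.11 against all sham arrays and 1.13 in the deposited values. At d4 after 3 Gy all 5 arrays, between -4.00 and -2.41, were above the 4 sham arrays with loess (0.99, SE 0.44, limma, adjusted p = 0.262). Sham arrays of d4 were mostly of scanner 1 and those of 3 Gy mostly of scanner 2, and the sham array on scanner 2, of M002, read highest of the 4. The part of scanner in this value was not tested, and the share of all probes whose groups separate was not computed.

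The 2 biopsies with the highest Slpi were also the 2 with the highest Lcn2 among the 81 arrays with an Lcn2 value. The left-out spot, of M018 at d28 after 6 Gy, had a raw Cy5 signal of 341 units, against 54 and 61 on these 2 arrays. Lcn2 read 0.84 in M018 at d7 after 6 Gy and 0.58 in M013 at d21 after 3 Gy, against a median of -0.54 over the arrays. S100a9 was 7.59 and 7.42 on those 2 arrays, which ranked 1 and 3 of 82, and S100a8 was 2.86 and 5.2. The mean log2 ratio of 21 neutrophil genes was 0.77 in M018, with 9 of them above background, and 1.23 in M013, with 17 above background, against 0.02 to 0.71 in sham at d7 (3 to 14 above) and 0.20 to 0.26 in sham at d21 (7 to 8 above). Arrays of other groups reached or passed the M018 value, up to 0.78 in sham at d28, 0.93 after 3 Gy at d4 and 1.13 after 6 Gy at d28. Genes of wounded or stressed keratinocytes were high on the same arrays: the mean of 11 was 4.42 in M018, against 1.13 to 2.61 in sham at d7, and 3.94 in M013, against 1.91 to 1.94 in sham at d21. Other arrays passed the M013 value, at 4.12 in sham M002 at h2 and up to 4.02 and 4.05 after 3 Gy at d4 and d28, while the M018 value was the highest of all arrays. The part of either cell type was not tested, and in bulk skin more cells of a type and more RNA per cell cannot be told apart. Over 81 arrays Slpi and Lcn2 had a Pearson r of 0.49 (Spearman 0.33), which was 0.32 without these 2 arrays; arrays of 1 mouse, slide and normalization are shared among the points.

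Calprotectin genes came next. S100a9 ranged from 0.74 to 7.59 over the arrays, and in lethal skin it started low and stood higher at each later TP. At h2 after 20 Gy S100a9 was 1.53, 1.57, 1.58 and 1.63, below all sham arrays of that TP, which read 3.04, 5.37, 2.35 and 2.40. At d4 it was 2.63, 3.91, 2.54 and 3.53 against 2.00, 2.27, 2.74 and 2.09 in sham. At d7 it was 6.01, 4.25 and 5.07 against 1.03, 2.34, 5.38 and 0.74. Over the 3 TPs the arrays of 20 Gy did not overlap one another, and those of d7 overlapped sham through M003 alone.

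None of these S100a9 differences passed the test over all probes. The log2 fold changes against sham were -1.71 (SE 1.03) at h2, 0.87 (SE 1.03) at d4 and 2.74 (SE 1.12) at d7, with limma adjusted p = 0.204, 0.561 and 0.158. Without sham M002 the h2 value was -1.02, and without sham M003 the d7 value was 3.74. Within lethal skin the rise was 1.58 from h2 to d4 and 1.96 from d4 to d7 (adjusted p = 1 and 0.299), whereas the deposited means of these groups were 5.62, 5.51 and 7.5 at h2, d4 and d7, with no step up from h2 to d4. Scanner mattered for d7: with scanner as a block the difference was 3.59 (adjusted p = 0.0268), and arrays of scanner 1 alone, with 2 sham arrays, gave 4.23 (adjusted p = 2.46e-06). In the deposited normalized values S100a9 was higher after 20 Gy at all 3 TPs, by 2.84, 3.49 and 3.68 (adjusted p = 0.0011, 6.96e-05 and 0.000106), so the direction at h2 was the opposite, while with median centring S100a9 was lower there by -1.93 (adjusted p = 0.0414); the scanner signals of h2 were 60 to 65.5 units after 20 Gy and 246 to 1372.5 in sham.

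S100a8, the partner of S100a9, also had its highest mean of lethal skin at d7, with group means of -0.19, 0.26 and 1.02 at h2, d4 and d7, but its arrays overlapped between TPs. At h2 it was above background on 1 of 4 arrays of 20 Gy, at -0.28, -0.11, -0.35 and -0.03, while sham read -0.10, 2.56, -0.76 and -0.53. At d4 the 4 arrays, at -0.06, 0.68, -0.03 and 0.47, were all above sham with loess, at -0.70, -0.63, -0.53 and -0.14. Their Cy5 signals were lower than in sham, at 14 to 37 units against 40 to 64.5, and 3 of 4 were above background. Median-centred values overlapped, at -0.83 to -0.36 after 20 Gy and -1.56 to -0.21 in sham. The share of all probes whose groups separate was not computed. At d7 the S100a8 arrays of 20 Gy were 1.03, -0.04 and 2.06 against -0.48, 1.89, 4.63 and -0.75 in sham, with much overlap. The log2 fold changes were -0.48, 0.77 and -0.31 (adjusted p = 0.774, 0.623 and 0.947). On scanner 1 alone S100a8 at d7 was 1.63 higher (adjusted p = 0.00968, 2 sham arrays).

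**Figure D3:**
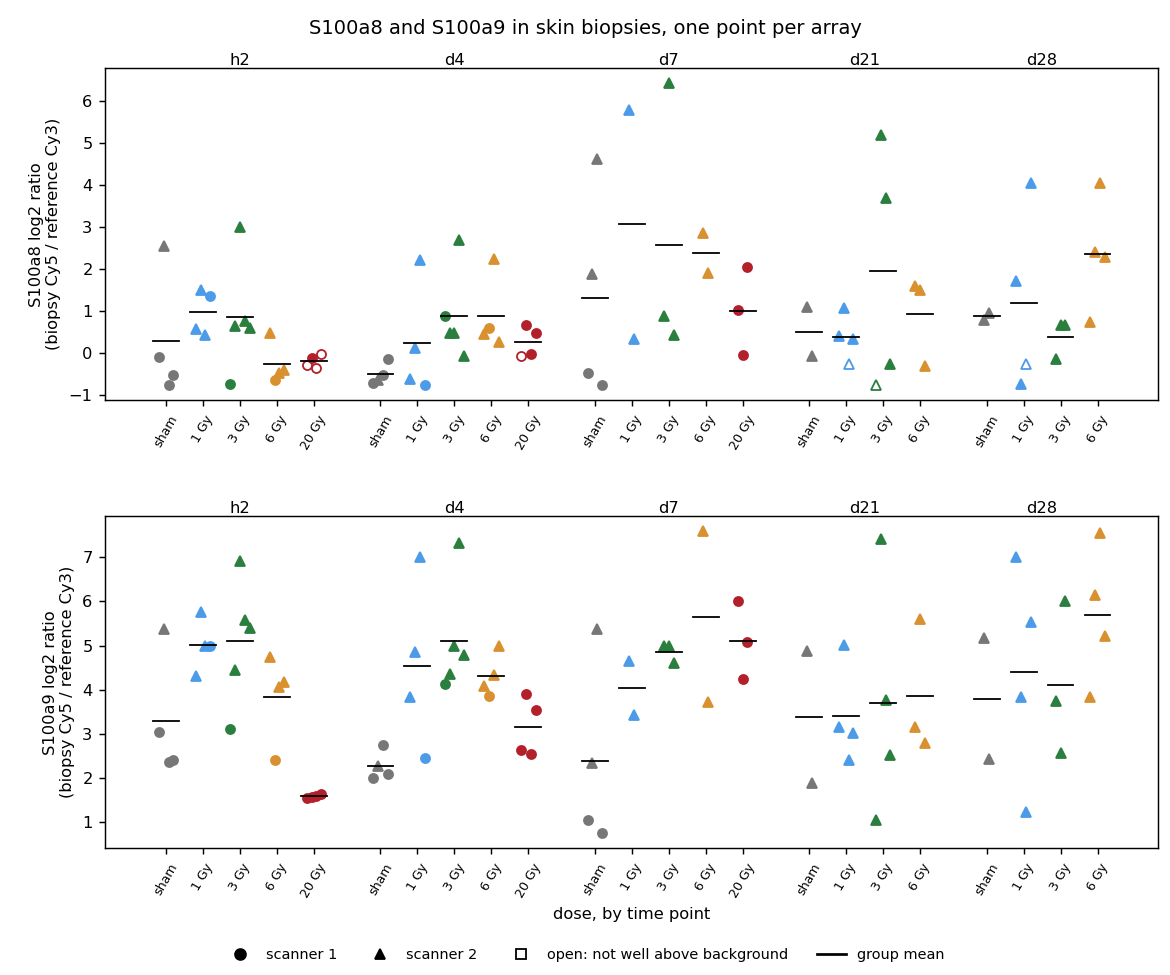
Log2 ratio of S100a8 (top) and S100a9 (bottom) on each array by dose and time point, with group means as bars, circles for scanner 1 and triangles for scanner 2, and open symbols for arrays not well above background. S100a9 of 20 Gy steps up from 1.53 to 1.63 at h2 to 4.25 to 6.01 at d7, and S100a8 shows single high arrays, the highest 6.43 at d7 after 3 Gy.

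In sublethal skin at d4 neither calprotectin gene passed the test, though several groups lay wholly above sham. S100a9 at d4 after 3 Gy was 4.12, 4.35, 4.98, 7.32 and 4.78, and after 6 Gy 4.08, 3.85, 4.32 and 4.98, all above the highest sham array (2.74). S100a8 was likewise above all sham arrays of d4 in 5 of 5 biopsies of 3 Gy and 4 of 4 of 6 Gy with loess. With median centring S100a8 overlapped, at -1.12 to 1.02 after 3 Gy and -0.87 to 0.94 after 6 Gy against -1.56 to -0.21 in sham. It also overlapped in the deposited values, at -1.04 to 1.91 and -0.75 to 0.84 against -1.04 to 0.07. The share of all probes whose groups separate was not computed. The S100a9 differences were 2.83 (SE 0.98) after 3 Gy and 2.03 (SE 1.03) after 6 Gy (adjusted p = 0.189 and 0.62), and 2.26 after 1 Gy (adjusted p = 0.759), where 1 of 4 arrays lay within the sham range. At d7 S100a9 after 6 Gy was 7.59 in M018 and 3.72 in M020, a mean difference of 3.28 (adjusted p = 0.451) that was 1.35 without M018 and 5.22 without M020, and the 2.49 after 3 Gy did not pass either. In the deposited values S100a9 passed at d4 after 3 Gy (2.54, adjusted p = 0.0127) and at d7 after 6 Gy (2.91, adjusted p = 0.0414). Sham arrays of d4 were mostly of scanner 1, and with scanner as a block the 3 Gy difference of d4 was 1.90; the 1 array of 3 Gy on scanner 1 was 1.84 above the sham arrays of that scanner.

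The highest S100a8 values came from single biopsies at different doses. They were 6.43 in M013 at d7 after 3 Gy, 5.80 in M006 at d7 after 1 Gy, 5.2 in M013 at d21 after 3 Gy and 4.63 in the sham mouse M003 at d7. S100a9 on the same arrays was 4.98, 4.65, 7.42 and 5.38, of which only the M013 biopsy of d21 was above 7. Over 82 arrays S100a8 and S100a9 had a Pearson r of 0.64 (Spearman 0.74) and 0.71 without the 2 arrays farthest from the S100a8 median; over the 23 group means r was 0.54. At d28 after 6 Gy S100a9 was 3.82, 6.14, 7.56 and 5.21 against 5.16 and 2.42 in sham (limma, 1.89, adjusted p = 0.581). The software's ratio turned this difference to -0.37 (limma, adjusted p = 0.917), and against all sham arrays it was 2.8 (adjusted p = 0.025). Without sham M003, which left 1 sham array, it was 0.52.

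Lcn2 stood near the detection limit. After 20 Gy it was above background on 0 of 4 arrays at h2, 0 of 4 at d4 and 3 of 3 at d7, whereas sham had 2 of 4, 3 of 4 and 1 of 4. The 3 arrays of d7 read 0.40, 0.14 and 0.34, above the sham arrays at -0.12, -0.37, -0.14 and -0.26. The difference did not pass the limma test with loess (adjusted p = 0.281) and passed with the software's own ratio (adjusted p = 6.35e-05), and no fold change is given, since 3 of the 4 sham arrays were not well above background. The Cy5 signals behind it were 11 to 23 units after 20 Gy and 0 to 32.5 in sham. At d7 after 1 and 3 Gy all 5 Lcn2 arrays were below sham, and 1 of those 5 was above background. One Lcn2 value of 6 Gy at d28 was left out because the software had marked its spot as an outlier.

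Camp and Ltf, stored in neutrophil granules, were mostly not well above background. Camp was above background on 0 of 11 arrays of 20 Gy, 3 of 16 of sham, 1 of 18 of 1 Gy, 4 of 20 of 3 Gy and 7 of 17 of 6 Gy. Its highest values were 1.41 in M006 at d28 after 1 Gy and 1.07 in M020 at d28 after 6 Gy. Ltf was above background on 0 arrays of sham, 3 Gy and 20 Gy and on 2 each of 1 and 6 Gy, with its highest value, 0.68, in the same M006 biopsy that held the highest Camp. That is the highest of the arrays with an Ltf value, since the spot of M006 at d7 after 1 Gy, with a Cy5 signal of 197 units, was left out as an outlier spot.

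Defb1, the constitutive beta-defensin of epithelia, fell in lethal skin. At h2 it was 0.40, 0.61, 0.80 and 0.89 after 20 Gy and 2.02, 3.92, 1.65 and 1.73 in sham. At d4 it was 0.68, 0.51, 0.58 and 0.89 against 2.20, 1.84, 2.30 and 1.63. At both TPs all arrays of 20 Gy lay below all sham arrays. The log2 fold change was -1.66 (SE 0.50, limma, adjusted p = 0.00704) at h2 and -1.33 (SE 0.50, adjusted p = 0.0338) at d4. At d7 the arrays of 20 Gy, at 1.90, 1.60 and 1.33, lay within the sham range of 1.11 to 3.88 (-0.67, SE 0.54, adjusted p = 0.587).

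A second Defb1 probe gave -2.07, -1.56 and -0.34 at h2, d4 and d7 (limma, adjusted p = 0.000859, 0.0129 and 0.842), and with median centring Defb1 was lower by -1.31 and -1.35 at h2 and d4 (adjusted p = 0.00334 and 0.00295). The Cy5 signal at h2 was 19.5 to 34.5 units after 20 Gy and 135 to 493 in sham. Within scanner 1 the differences were -1.13 at h2 and -1.38 at d4 (adjusted p = 1.29e-05 and 1.23e-06). The h2 call was lost without sham mouse M002 (-1.13, adjusted p = 0.0829), whose biopsy had a mean log2 ratio of 7.00 over 7 hair follicle genes, against 0.95 as the lowest of its group, and the d4 call with slide as a random block (-1.52, adjusted p = 0.0989) and without sham M001 or M004 or the 20 Gy mouse M021, M022 or M023 (-1.33 to -1.23, adjusted p = 0.0605 to 0.0857). Neither call stood in the deposited normalized values (-0.16 and -0.11), in the software's ratio (-1.23 and -1.43, adjusted p = 0.156 and 0.104) or with local backgrounds as deposited (-1.13 and -1.2, adjusted p = 0.265 and 0.207), and the d4 call was lost without background correction (-1.04, adjusted p = 0.122).

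**Figure D4:**
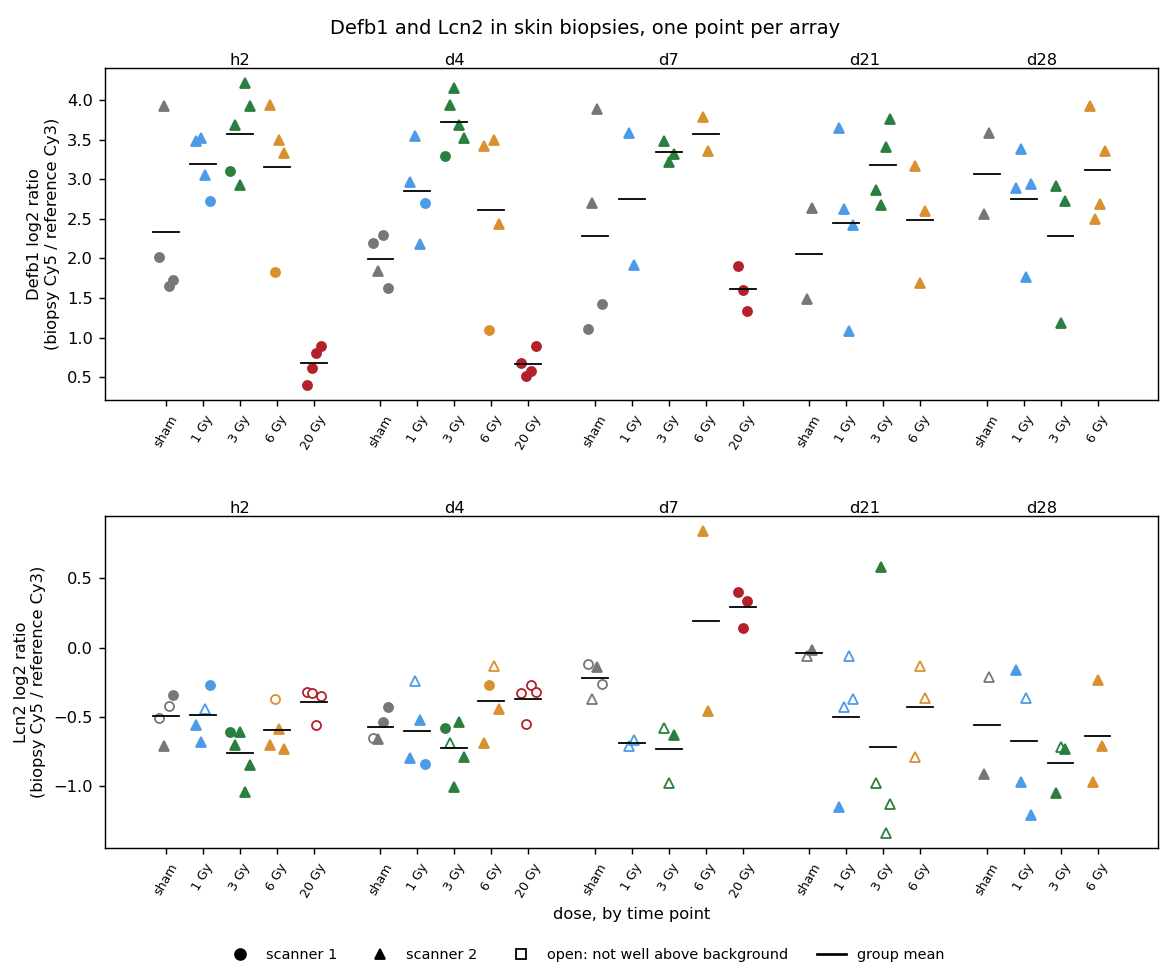
Log2 ratio of Defb1 (top) and Lcn2 (bottom) on each array by dose and time point, with group means as bars, circles for scanner 1 and triangles for scanner 2, and open symbols for arrays not well above background. Defb1 of 20 Gy lies between 0.40 and 0.89 at h2 and d4, below every other array of those TPs, and Lcn2 of 20 Gy is above background at d7 alone.

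In sublethal skin no Defb1 difference from sham passed the test, and the log2 fold changes ran from -0.79 (d28 after 3 Gy) to 1.72 (d4 after 3 Gy). At d4 after 3 Gy it was 3.29, 3.94, 4.15, 3.68 and 3.52, above all 4 sham arrays (1.72, SE 0.47, limma, adjusted p = 0.155). At h2 after 3 Gy it was 1.24 higher and at d7 after 6 Gy 1.29 higher (adjusted p = 0.261 and 0.595). At d21 after 3 Gy all 4 arrays, from 2.68 to 3.76, were above the 2 sham arrays at 1.49 and 2.63 (1.11, adjusted p = 0.717). With scanner as a block the d4 difference after 3 Gy was 1.12 (adjusted p = 0.754), and without sham M002 or without M011 the call would pass (1.67 and 1.83, adjusted p = 0.0323 and 0.0446).

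The lethal and the highest sublethal dose were then compared directly. Defb1 was lower after 20 Gy than after 6 Gy by -2.48 at h2, -1.94 at d4 and -1.96 at d7 (limma, adjusted p = 7.26e-05, 0.00219 and 0.0271). The 6 Gy arrays read 3.94, 1.83, 3.50 and 3.33 at h2 and 3.42, 1.1, 3.49 and 2.43 at d4, where the lowest at each TP was M017, the 1 mouse of 6 Gy on scanner 1. At d7 they read 3.79 and 3.35, both on scanner 2, and with scanner as a block the differences were smaller at d4 (-1.12, adjusted p = 0.0516) and d7 (-0.86, adjusted p = 0.344). The d7 call of Defb1 was also lost without M018, M020, M023 or M024 (-2.18 to -1.74), with slide as a random block (-1.31), without background correction (-1.5) and on the second probe (-1.63), and with scan day as a block the value was 0.06. Arrays of scanner 1 alone, with M017 as the only array of 6 Gy, gave -0.43 at d4. All 3 calls were lost in the deposited values, at -0.56, -0.30 and -0.72 (adjusted p = 0.0498, 0.32 and 0.0629, the first under 2-fold), and with local backgrounds as deposited, at -1.08, -0.99 and -0.22. Slpi was 2.58 higher at h2 and 2.03 higher at d4 than after 6 Gy, with a log2 difference of -0.12 at d7; with median centring these Slpi values were 0.36, 0.27 and -0.76. S100a9 differed by -2.26 at h2 (adjusted p = 0.0845), and with loess neither calprotectin gene passed the test at any of the 3 TPs. Median centring gave S100a9 -2.08 at h2 (adjusted p = 0.0364), whereas the deposited values had the opposite direction and passed, with S100a9 2.08 higher at h2 and 1.91 higher at d4 (adjusted p = 0.013 and 0.0235) and S100a8 1.95 higher at h2 (adjusted p = 0.0342).

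**Figure D5:**
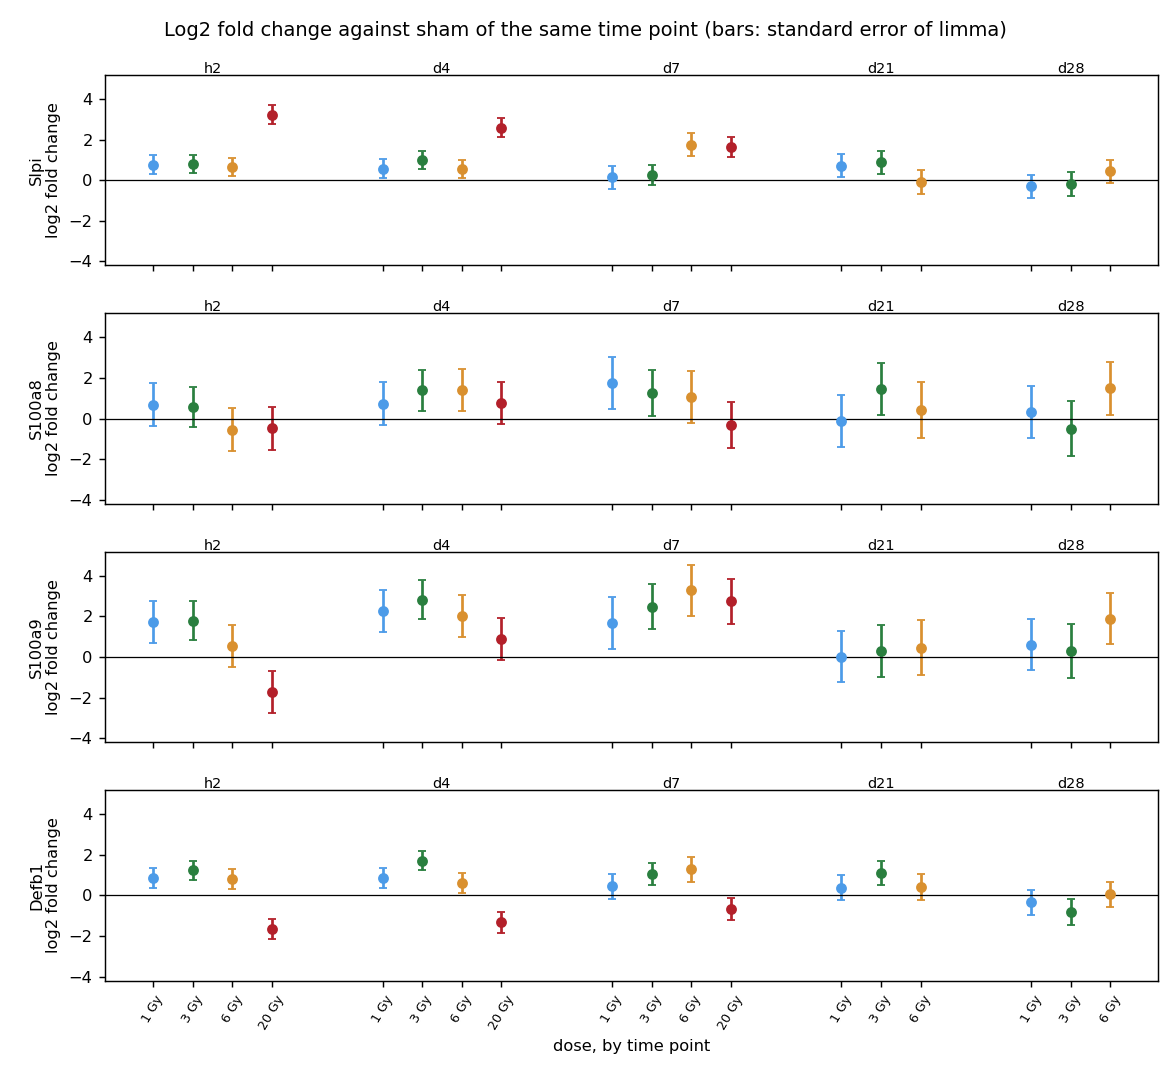
Log2 fold change against sham of the same time point for Slpi, S100a8, S100a9 and Defb1, with bars for the standard error of limma and colours for dose. Slpi of 20 Gy stands at 3.23, 2.58 and 1.63 and Defb1 of 20 Gy at -1.66, -1.33 and -0.67, and the standard errors of S100a8 and S100a9 are about 1 log2 unit.

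Counted over the 6 members without Slpi, whose change after 20 Gy was a ground of its choice, limma called 1 at h2 (Defb1, lower) where 14.3% of all 30294 probes tested were called. At d4 it again called 1, Defb1, beside 13% of probes, and at d7 it called 0 beside 3.11%, where 1 of the 6, S100a9, had an unadjusted p under 0.05 and at least a 2-fold difference. With Slpi counted again, limma called 0 of 63 tests of the 7 members in the 9 sublethal comparisons of the first week, beside 0.0128% of all tests. At d21 and d28 it called 0 of 42, beside 0.00443%. These include Slpi at d21 after 3 Gy and d28 after 6 Gy, on which it was chosen. At an unadjusted p under 0.05 with at least 2-fold the members counted 8 of 63 and 0 of 42. Slpi at d7 after 6 Gy was 1 of the 8. The share of all probes at that unadjusted rule was not computed, so these unadjusted counts have no background beside them. Between 20 and 6 Gy it called 1 of the 6 members other than Slpi, Defb1, at h2 (14.4% of probes), d4 (10.7%) and d7 (9.86%).

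Time within a dose moved no member past the test in limma. The shares of probes called were 0% for d4 against h2 in sham, 1.98% for d7 against d4 in sham, 0.129% and 7.88% for the same steps after 20 Gy, and 0.0312% for late against early effects of the sublethal doses. At the unadjusted p with 2-fold, whose share over all probes was not computed, 0 members changed in the 4 steps of sham and 20 Gy. In the late against early effects 1 of 21 tests did. The largest of these late-minus-early values was -2.07 for S100a9 after 3 Gy (adjusted p = 0.386).

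Other antimicrobial proteins of skin were tested in the same comparisons. Of 18 tested, limma called 1 upward and 3 downward at h2, 0 and 3 at d4 and 1 and 1 at d7, and the list medians were -0.29, -0.30 and -0.77 beside -0.01, -0.02 and 0.02 over all probes. These are 4, 3 and 2 of 18, beside 14.3%, 13% and 3.11% of all probes. Ang (angiogenin, a ribonuclease with microbicidal activity) fell by 2.27 and 1.94 on the log2 scale at h2 and d4 and passed the limma test at both TPs. Lyz1, a lysozyme, fell by 1.66 and 1.86, Wfdc12, a relative of Slpi, fell by 1.81 at h2, and Defb8 fell by 2.57 at d4. All of these were also lower with median centring and in the deposited values. Adm (adrenomedullin) was 2.15 higher at d7 (adjusted p = 5.48e-06) and 1.09 higher at h2, where median centring gave -0.94. Cxcl14 fell by 1.79 at d7. Among the sublethal groups Defb14, an inducible beta-defensin, was 2.80 higher at d21 after 3 Gy (adjusted p = 0.0109), the TP of the high M013 biopsy.

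Genes that bind, process or receive these proteins were mixed. Of 16 tested, 2 passed upward and 4 downward at h2 after 20 Gy, 1 and 4 at d4 and 1 and 2 at d7, in all 6, 5 and 3 of 16 beside 14.3%, 13% and 3.11% of all probes. Grn (progranulin, which Slpi shields from cleavage) had the largest difference, 6.00 at h2 and 4.54 at d4 (limma, adjusted p = 2.98e-08 and 1.29e-05) and 0.24 at d7, and with median centring 3.34 and 2.18; the deposited values gave 0.15 and -0.40. The mast cell chymase Cma1 fell by 2.62 and 2.15 and the epidermal protease Klk7 by 2.60 and 2.19 at h2 and d4, both proteases of kinds that Slpi inhibits. Cd36, a fatty acid receptor, fell by 1.70 and 2.43. Cma1, Klk7 and Cd36 were also lower with median centring and in the deposited values.

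Of 14 tested inducers and regulators, 0 rose and 2 fell at h2 and at d4, and 2 rose and 1 fell at d7. These are 2, 2 and 3 of 14, beside 14.3%, 13% and 3.11% of all probes, so that the shares of h2 and d4 were near the background. Cebpd, whose factor binds C/EBP sites, was 2.91 higher at d7 after 20 Gy (limma, adjusted p = 9.25e-07), and Stat3, which carries interleukin signals to these genes, was 1.48 higher (adjusted p = 0.000186). Cebpa fell by 1.71, 1.96 and 1.66 at h2, d4 and d7. Cebpb fell by 1.36 and 1.35 at h2 and d4, where the deposited values gave 0.55 and 0.56. The directions of Cebpd, Stat3 and Cebpa at d7 were the same with median centring and in the deposited values.

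Neutrophil genes and the other S100 genes gave the surroundings of S100a8 and S100a9. Of 17 neutrophil genes tested, 0 were called at h2 and d7 after 20 Gy and 1 (Lrg1, lower) at d4, beside 14.3%, 3.11% and 13% of all probes at h2, d7 and d4. The mean log2 ratio over the 21 neutrophil genes with a probe was 0.06 to 0.07 at d7 after 20 Gy, the TP of the highest S100a9 in lethal skin, with 3 of 21 above background on each of the 3 arrays. In sham at d7 it was 0.02 to 0.71, with 3 to 14 above background. The granule genes Camp and Ltf were each above background on 0 of 3 arrays of 20 Gy at d7. In sham at d7 they were above background on 1 of 4 and 0 of 4 arrays. The part of neutrophils in the S100a9 values was not tested. Of 11 other S100 genes, 0 were higher and 1 was lower at h2 and d4 (S100a16), and 4 were lower at d7 (S100a1, S100a4, S100a14 and S100a16), or 1, 1 and 4 of 11 against those same shares of probes. The largest of these was S100a14, an epidermal S100 protein, which fell by 2.72 at d7 (limma, adjusted p = 4.1e-07).

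Across the 23 group means the genes most like Slpi among 15406 were 1110038B12Rik (Pearson r 0.938), Gadd45b (0.923), Gsta4 (0.899), Ccl3 (0.895) and Ap3b2 (0.885). Those most like S100a8 were Zfp830 (0.816), Akr1c21 (0.783), C330018D20Rik (0.782), Syce2 (0.781) and Slc30a3 (0.769), of which Akr1c21 was above background on 24 of 82 arrays and Slc30a3 on 2, so that these 2 were mostly at background. The groups share slides, scanners and normalization, and no member was among these 10 genes.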

How the data were processed

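Skin biopsies were measured on 82 Agilent two-colour mouse arrays of 45018 spots. The members and gene lists were chosen with earlier results of these data known. The authors deposited, per the file headers, the median pixel intensity of each spot and its local background in both channels, the log10 ratio of Cy5 over Cy3 that the Feature Extraction software (11.0.1.1 in the submitters' notes; the headers name 2 scanner models) made with its own dye normalization and subtraction of background, and flags for background, saturation and outliers. The authors also deposited normalized log2 values whose steps are not given in the sources used here; 41174 of 41267 entries shared their name with a probe, and column medians were -0.015 to 0.015. Of 82 columns 62 were closest to their own array, so the values served only as an alternative.

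Here the median intensities were background-corrected with normexp (offset 50) and normalized by loess within arrays in limma 3.58.1 (R 4.3.3). On 35 arrays a few spots with a very high local background spoiled the normexp fit, so local backgrounds marked as outliers by the software, or over 3 times the array median, were set to the array median (0 to 220 spots an array, median 20.5). This rule was chosen after the fits were seen. Control spots and 0.704% of spot values marked as outliers were left out, and spots of a probe were averaged. A probe was tested where at least 50% of the arrays of 1 group flagged its Cy5 signal as well above background (30294 of 41174), in 1 fit with a mean for each of 23 groups. A probe was called at a Benjamini-Hochberg adjusted p under 0.05 over all tested probes and at least 2-fold. Of the probes, 67% had a symbol, through accessions in a RefSeq table. Genes named beside the members were those called in the comparison, the largest changes first, Cdkn1a and Mdm2 as a check, and the 5 genes most like Slpi and S100a8. Depth has no meaning for arrays: the number of arrays, 2 to 5 a group, limits the precision. Mice were biopsied repeatedly; arrays of 1 mouse deviated together only weakly (median r 0.05 over 111 pairs, 46 of them over 0.1, against 0 for different mice), and mouse as a random block was an alternative. The fit was tested on simulated data. Alternatives were the deposited values, the software ratio, median centring, no background correction, scanner, slide, mouse and scan day as blocks, scanner 1 alone, other filters, all sham arrays as control and leaving out each of 24 mice.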

Additional observations from a re-analysis of the deposited data

Results flagged for a closer look

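In 9 cases an array stood apart from the others of their group in a test of the gap to the nearest neighbour against the range (Dixon's 95% value), among 105 tests, 7 genes in each of 15 groups of 4 or 5 arrays; chance gives about 1 in 20. Slpi read -3.95 in sham M002 at h2, where the other 3 arrays lay between -4.83 and -4.76, and -0.18 in M013 at d21 after 3 Gy, where the others lay between -3.67 and -3.49. Defb1 read 3.92 in the same sham M002 array, against 1.65 to 2.02; it was the 1 array of its group on scanner 2, and its biopsy also had the highest mean of its group over hair follicle genes (7.00, lowest of the group 0.95) and stressed keratinocyte genes (4.12, lowest 2.03). The part of scanner and tissue content was not tested. S100a9 read 7.32 in M014 at d4 after 3 Gy, against 4.12 to 4.98. Lcn2 read -0.56 in M023 at h2 after 20 Gy, where no array was above background. Camp read 0.11 in sham M005 at h2 and 1.41 in M006 at d28 after 1 Gy, and Ltf read 0.68 in the latter biopsy and 0.17 in M022 at d4 after 20 Gy.

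Lethal skin was also set directly against the highest sublethal dose. Against 6 Gy, Slpi after 20 Gy was 2.58 higher at h2 and 2.03 higher at d4 with loess but 0.36 and 0.27 with median centring, and Defb1 differed by -2.48 at h2, -1.94 at d4 and -1.96 at d7 (limma, adjusted p = 7.26e-05, 0.00219 and 0.0271 for Defb1), of which none passed in the deposited values (-0.56, -0.30 and -0.72); Slpi had been chosen for its change on these arrays, so its values carry no test.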

How the results depend on the processing

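Members called after 20 Gy numbered 2, 2 and 1 (h2, d4, d7), with 0 in the first week and 0 at d21 and d28 after sublethal doses, 5 between 20 and 6 Gy and 0 over time within a dose. Without Slpi the 20 Gy counts were 1 and 1 (Defb1) and 0, the d7 call being Slpi alone, and of the 5 between 20 and 6 Gy 3 were Defb1 and 2 Slpi. The other counts of this paragraph include Slpi, whose calls carry no test. The deposited values gave 2 at h2 and d4 as well, but Slpi and S100a9 (higher) in place of Slpi and Defb1, and between 20 and 6 Gy 6, of Slpi, S100a8 and S100a9 and none of Defb1; they gave 2 at d7, 2 in the first week (S100a9) and 1 over time; the software ratio 1 at h2, 2 at d7 and 2 over time; median centring 1 at d4 and 0 at d7, with 2 at h2 of S100a9 (lower) and Defb1 and not Slpi, and 4 between 20 and 6 Gy of Defb1 and S100a9; no background correction 1 at d4 and 1 over time. Scanner as a block gave 2 at d7 and 3 between 20 and 6 Gy. Scanner 1 alone gave 3 at d7 and 4 over time. Its sublethal groups held 1 array each, so the counts that rest on them are not given. Slide as a random block gave 1 at d4, no filter on dim probes 0 at d7, and all sham arrays as control 1 at d21 and d28. Alternatives chosen after seeing the data were normexp on the local backgrounds as deposited (1 at h2, 1 at d4, 0 at d7, 2 between 20 and 6 Gy) and scan day as a block (0 at d7). With the replicate block, mouse as a random block, the counts were 2, 2, 1, 0, 0, 5 and 0, as without it. Leaving out 1 mouse gave 1 to 2 at h2 (1 without sham M002) and 1 to 2 at d4 (1 without sham M001 or M004, or M021, M022 or M023). At d7 it gave 0 to 1 (0 without sham M002 or M003, or M022, M023 or M024), where the call lost was Slpi, which carries no test. In the first week it gave 0 to 1 (1 without sham M002 or M011). The fit without M020 left 1 array of 6 Gy at d7, so its count is not given. Leaving out 1 mouse also gave 0 to 1 at d21 and d28 (1 without M013), 4 to 5 between 20 and 6 Gy and 0 over time.

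Directions turned for values that had passed no test, except Defb1 of 20 over 6 Gy at d7 with scan day as a block (0.06), and Slpi, which carries no test. Deposited values gave S100a8 1.3 at h2 and 1.15 at d7, S100a9 2.84 at h2, and of 20 over 6 Gy S100a8 1.15 at d4 and 0.80 at d7, S100a9 2.08 at h2, 1.91 at d4 and 0.76 at d7, and Slpi 1.11 at d7. The software ratio gave S100a8 0.32 at d7, and of 20 over 6 Gy S100a8 -0.50 at h2 and S100a9 1.1 at d4. Median centring gave S100a9 -0.09 at d4, and no background correction S100a8 0.00 at d7 and -0.11 for 20 over 6 Gy at h2. Scanner as a block gave S100a8 0.32 at d7, and of 20 over 6 Gy Slpi 0.55 at d7, S100a8 0.31 at d4 and S100a9 0.12 at d4 and 1.15 at d7. Scanner 1 alone gave S100a8 0.27 at h2 and 1.63 at d7 and Defb1 0.34 at d7; slide as a block S100a8 0.28 at d7 and -0.06 for 20 over 6 Gy at h2; all sham arrays S100a8 -0.19 at d4 and 0.56 at d7. Local backgrounds as deposited gave Defb1 0.03 at d7 and -0.74 at d4 after 3 Gy, S100a9 0.00 at d4 after 3 Gy, and of 20 over 6 Gy S100a8 -0.10 at h2 and S100a9 0.12 at d4 and 0.93 at d7. Scan day as a block gave S100a8 1.63 and Defb1 0.34 at d7, and of 20 over 6 Gy at d7 S100a8 2.51 and S100a9 2.43. Without 1 mouse S100a8 ran from -0.83 to 0.27 at h2 and -1 to 0.80 at d7, and of 20 over 6 Gy S100a8 from -0.06 to 0.30 at h2, Slpi from -1.48 to 1.24 and S100a9 from -2.48 to 1.39 at d7. The cause of these turns was not tested. Camp, Ltf, and Lcn2 after 20 Gy were fitted and are among the tests counted, but their fold changes are not reported, since they were mostly not well above background in 1 or both groups. Over the settings of the values followed one by one, 1104 kept direction and side of the threshold, 43 lost it, 18 gained it and 45 turned. These values were those of 20 Gy and some sublethal ones of the first week. Other sublethal values are not counted, such as S100a9 at d28 after 6 Gy, which the software ratio turned to -0.37.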
